A study of Mus musculus with 4 samples.

Results

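Zfp genes, the mouse genes named as zinc finger proteins with a number, were examined in RNA sequencing of the prelimbic cortex, a medial prefrontal area. The genes were selected by their level: a protein-coding gene whose symbol began with Zfp and a digit entered a comparison where the larger of its 2 values was at least 2 FPKM (fragments per kilobase of a gene's transcript and per unit of library size). This took 88 of the 134 listed protein-coding Zfp genes of the stress table, which holds 12318 genes, and 92 of 147 in the table of the virus experiment, which holds 15396. In all 145 genes entered at least 1 comparison and 35 entered both, out of 19175 genes listed in either table. The remaining 46 and 55 Zfp genes lay under the floor of 2 FPKM. Of the 394 protein-coding Zfp genes in the GENCODE M21 annotation, 158 had no row in either table.

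All mice were C57BL/6 and 8 weeks old, and each of the 4 groups is 1 library. In the stress pair, mice susceptible after chronic social defeat stress, in which a mouse is repeatedly attacked by an aggressor, were set against control mice. The labels give the control the same stress tag as the susceptible group, so what the control mice went through cannot be told from them. In the virus pair, mice carried an adeno-associated virus (AAV) for overexpression of either green fluorescent protein (AAV-GFP) or CDYL (AAV-CDYL). CDYL, chromodomain Y-like protein, is a chromatin corepressor. The sources used here do not give the promoter of the virus, the cells it reached, the time after injection or whether tissue from several mice was pooled. The stress pair asks which genes differ with susceptibility, and the virus pair which differ when CDYL is overexpressed.

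Most Zfp proteins carry C2H2 fingers, short loops held by zinc that read DNA in tandem arrays. Many of them also carry a KRAB box, which binds the corepressor Trim28 and through it brings histone methylation by Setdb1, above all to transposons and imprinted loci. A few Zfp names belong to other proteins: Zfp36, Zfp36l1 and Zfp36l2 have CCCH fingers that bind AU-rich elements of messenger RNAs, among them cytokine transcripts, and promote their decay.

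The promoters of 4 genes are shown because these genes had the largest higher values of the virus pair (Zfp771, Zfp36, Zfp36l1) or stood lower past the size rule in both pairs (Zfp382). Each run is the 250 bases before the start, 5′ to 3′ on the strand of the gene, from RefSeq on GRCm38.p6. Zfp36 lies at chr7:28379229-28379478 (minus strand), Zfp36l1 at chr12:80113014-80113263 (minus), Zfp771 at chr7:127244276-127244525 (plus) and Zfp382 at chr7:30121682-30121931 (plus). Capitals mark matches on either strand to the STAT element GAS (TTCNNNGAA), AP-1 (TGANTCA), the CRE core (TGACG), the GC box (GGGCGG) and the TATA box (TATAAA).
Zfp36: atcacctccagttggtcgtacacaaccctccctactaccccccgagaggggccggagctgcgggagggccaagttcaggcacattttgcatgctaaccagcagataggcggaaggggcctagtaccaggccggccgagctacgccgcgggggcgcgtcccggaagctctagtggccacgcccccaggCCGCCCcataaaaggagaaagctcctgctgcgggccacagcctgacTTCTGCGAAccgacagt
Zfp36l1: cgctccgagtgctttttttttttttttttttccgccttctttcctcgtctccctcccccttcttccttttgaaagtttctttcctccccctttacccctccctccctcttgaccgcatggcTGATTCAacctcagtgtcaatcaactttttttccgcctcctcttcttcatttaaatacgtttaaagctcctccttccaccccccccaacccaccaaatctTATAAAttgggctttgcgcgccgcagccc
Zfp771: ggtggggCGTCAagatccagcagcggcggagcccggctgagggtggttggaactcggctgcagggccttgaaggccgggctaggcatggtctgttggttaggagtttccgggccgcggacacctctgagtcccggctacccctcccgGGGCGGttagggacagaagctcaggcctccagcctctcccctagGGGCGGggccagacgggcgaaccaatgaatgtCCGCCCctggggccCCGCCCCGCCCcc
Zfp382: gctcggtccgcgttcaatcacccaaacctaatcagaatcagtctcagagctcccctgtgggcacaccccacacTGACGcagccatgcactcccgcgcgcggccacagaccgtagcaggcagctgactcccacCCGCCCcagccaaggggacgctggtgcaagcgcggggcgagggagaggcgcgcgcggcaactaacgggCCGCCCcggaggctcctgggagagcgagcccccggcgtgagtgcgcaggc
Positions count back from the start, the base before it being -1. Zfp36 held 1 GAS match, which began at -17, and 1 GC box at -63. Zfp36l1 held 1 AP-1 match at -129 and 1 TATA box at -29. Zfp771 held 5 GC boxes, of which the last 2 overlap by 1 base, and 1 CRE core. Zfp382 held 1 CRE core and 2 GC boxes. Of all 32851 RefSeq promoters in the table, 7.02% held a GAS match, 6.75% AP-1, 17.8% a CRE core, 32.7% a GC box and 12.4% a TATA box. Of the 119 Zfp genes matched to a promoter, out of 145, the shares were 14.3%, 6.72%, 31.9%, 44.5% and 9.24%. Here and below, a Zfp gene was counted where any of its promoters held the motif, whereas the other shares count single promoters. A gene with several promoters has more occasions for a match, so these shares are not like for like and no enrichment is read from them. Further motifs were counted without capitals: an NF-kB motif (GGGA, any 4 bases, CC) was in 17.6% of all promoters and 18.5% of the Zfp genes, and the CCAAT box (CCAAT) in 33.8% and 51.3%. A match is a run of letters, and no binding was measured.

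Most expressed Zfp genes were low. The median was 5.68 FPKM in control (1.66 to 184), 5.59 in susceptible (0.913 to 131), 5.85 in AAV-GFP (0.542 to 218) and 5.43 in AAV-CDYL (1.43 to 158). Protein-coding genes past the same floor had medians of 9.12, 9.2, 11.0 and 11.8 FPKM in the same order. Only 9, 4, 6 and 4 Zfp genes reached 20 FPKM in these libraries. The effective depth read from the steps between low values was 14500000 fragments in the control library. The susceptible library had 23500000, AAV-GFP 22400000 and AAV-CDYL 23600000. A transcript of 3 kb at 2 FPKM was then backed by about 86.8, 141, 135 and 142 fragments. Such counts vary by 10.7%, 8.42%, 8.62% and 8.41% (SD) from counting alone, and this covers counting error only.

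**Figure D1:**
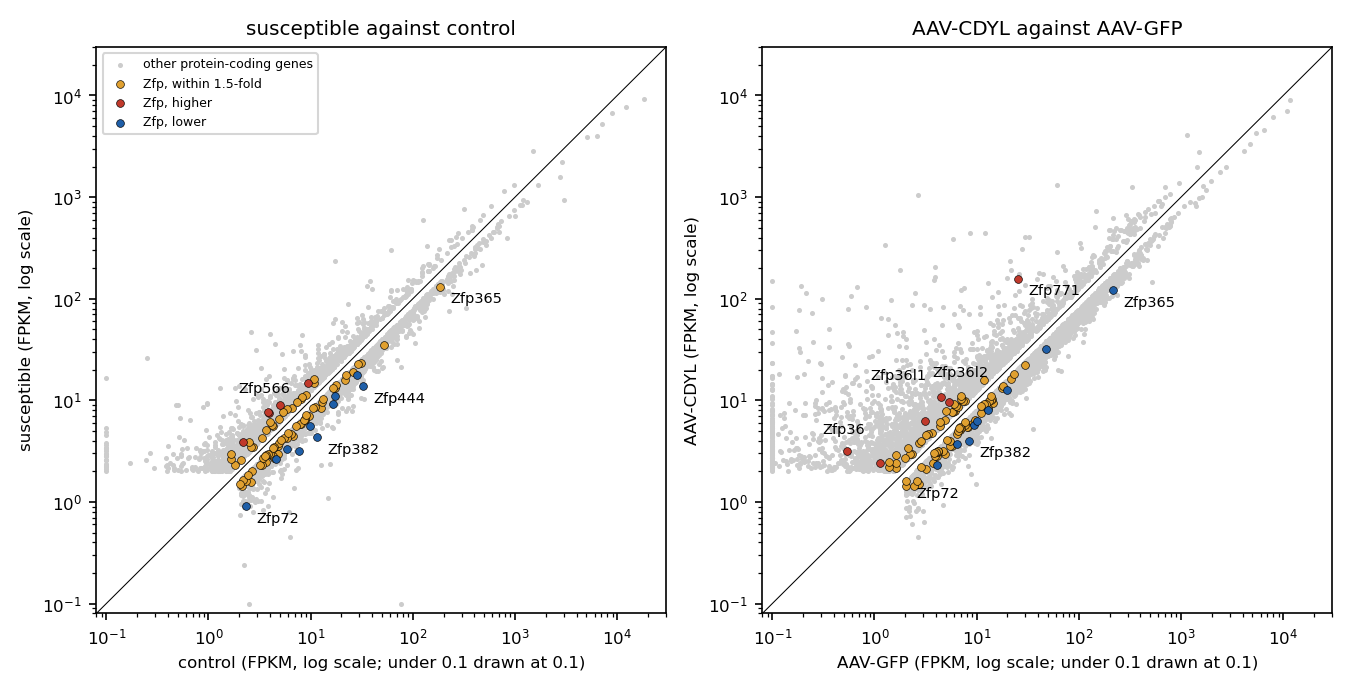
FPKM of each protein-coding gene past the 2 FPKM floor in the comparison library (x axis) and the treated library (y axis) of each pair, both on log scales. Coloured points are the 88 and 92 Zfp genes, red where at least 1.5-fold higher and blue where at least 1.5-fold lower on the log2(FPKM + 1) scale, and orange otherwise. Some orange points therefore differ by over 1.5-fold in FPKM. Grey points are other genes. The strip without points along the diagonal is there because the tables list no gene with a smaller ratio. Zfp365 is the highest Zfp gene of control, susceptible and AAV-GFP, while in AAV-CDYL it stands at 122 FPKM, under Zfp771 at 158.

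Neither pair has a replicate, so no difference below was tested and each describes these libraries alone. The difference is that of log2(FPKM + 1) between the libraries, and a gene is called higher or lower where it is at least 1.5-fold on that scale, which understates the change of low genes. Folds given for single genes are ratios of FPKM. Both tables list only genes whose values differ by at least 0.322 on the log2 scale (genes above 0 in both libraries), so the expressed Zfp genes are those with such a difference. A gene with no row may be alike or unmeasured. The median of all genes past the floor (-0.293 in the stress pair, -0.296 in the AAV pair) lies near the edge of the gap this leaves around 0. Centring on that median, as done below, therefore carries most genes above 0 past the size rule and leaves few called lower. Counts under centring show how far the calls rest on the scaling and cannot tell which direction prevails. In bulk tissue, fewer cells of a type and less RNA per cell cannot be told apart.

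Summed over listed markers without a floor, the oligodendrocyte and myelin list (10 of 11 listed) had 613 FPKM in control against 1583 in susceptible, with 9 higher and 0 lower. All 11 were higher in the AAV pair and the sum went from 660 to 2567. Neuron markers summed to 1430 and 1028 FPKM in the stress pair (5 of 10 listed, 0 higher, 1 lower) and to 3970 and 2556 in the AAV pair (8 listed, 0 higher, 5 lower). Defining neuron markers were thus abundant, with Syt1 at 617 FPKM in control and 591 in AAV-GFP. Astrocyte markers summed to 126 and 224 in the stress pair (5 of 8 listed, 2 higher, 0 lower) and to 206 and 699 in the AAV pair (6 listed, 5 higher, 1 lower). Microglia and macrophage markers summed to 148 and 143 in the stress pair (7 of 10 listed, 1 higher, 2 lower), against 166 and 1263 in the AAV pair (10 listed, 9 higher, 0 lower). Endothelial markers summed to 75.0 and 218 (6 of 7 listed, 4 higher, 0 lower) and to 71.1 and 156 (5 listed, 3 higher, 0 lower). Of 9 lymphocyte markers 3 were listed in the stress pair (1 higher, 0 lower; 0.211 and 4.03 FPKM) and 9 in the AAV pair (8 higher, 0 lower; 0.138 and 1433), where the immunoglobulin gene Igkc alone gave 1407 and was listed at 0 in AAV-GFP, as were Cd3g, Cd3d, Cd8a, Cd79a and Nkg7. The susceptible library therefore differs from control in myelin, endothelial and some astrocyte markers, and AAV-CDYL differs from AAV-GFP in markers of several cell types. The part of cell types in any result below, in either pair or in both, was not tested. Cdyl itself stood at 2.68 FPKM in AAV-GFP and 1052 in AAV-CDYL, 393-fold higher, and at 1.98 in control and 2.54 in susceptible.

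In the stress pair, 5 of the 88 Zfp genes were higher and 10 lower in susceptible than in control by the size rule, that is 5.68% and 11.4%. Among all 3758 protein-coding genes past the floor, 16.0% were higher and 10.5% lower, together 26.5% against 17.0% of Zfp genes. The median difference was -0.307 for Zfp genes and -0.293 for all of these genes. In sign, 61 of 88 lay below control (69.3%, against 53.0% of all these genes) and 27 above it (all genes 47.0%). Centred on the median of all these genes the split was 23 higher and 3 lower (all genes 44.1% and 2.63%), and scaled to a common upper quartile it was 10 and 6 (25.7% and 5.14%). Which direction has more calls by the size rule therefore depends on the scaling. In sign, the upper quartile factor of 1.12 is smaller than the smallest listed ratio and could change no side. Centred, slightly more Zfp genes lay below control than above it. Centring takes off a median close to that of the Zfp genes, so a near-even split was fixed and no direction is read from it. By the authors' deposited table, 1 Zfp gene had a p-value under 0.05, against 9.95% of all these genes, and every Zfp gene had a q-value of 0.999. The floor, which any gene passes through its higher library, shaped these counts, so nothing is read from their distance to the background.

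Zfp382, a KRAB zinc finger protein known in human cells as a repressor, had the largest lower difference of the set, at 11.4 FPKM in control and 4.36 in susceptible, 2.61-fold lower (log2 difference -1.21). It lies on mm10 chromosome 7, from 30121942 to 30134950, and 33 of the 3758 genes were at least as low. Zfp444, which has 4 C2H2 matches and no KRAB match, followed at 32.2 and 13.7 FPKM, 2.35-fold lower (-1.18). It is the 1 Zfp gene with a p-value under 0.05 in the authors' deposited table (0.03485), and it shares a Cuffdiff locus, the unit within which fragments are divided between genes, with 1 other listed gene. Zfp354a, the KRAB protein Kid1 first described in kidney, was 2.4-fold lower, at 7.66 and 3.2 FPKM.

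The other genes called lower differed less on the log2(FPKM + 1) scale. Zfp72 was close to the floor at 2.34 FPKM in control and 0.913 in susceptible. Zfp426, a KRAB protein, stood at 16.4 and 9.19, and Zfp931 at 9.93 and 5.57. Zfp65 stood at 5.87 and 3.3 FPKM, and Zfp874b at 4.57 and 2.65. Zfp346, a protein that binds double-stranded RNA, was at 28.4 in control and 17.6 in susceptible. Zfp322a stood at 17.3 and 11.0 FPKM. Under centring these 7 no longer reached the size rule, while Zfp382, Zfp444 and Zfp354a did, and these 3 are also the genes called lower at 2-fold.

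Zfp566, a KRAB protein whose gene lies within 50 kb of Zfp382, was at 3.8 FPKM in control and 7.71 in susceptible, 2.03-fold higher (log2 difference 0.86). The pair of neighbours thus lay on opposite sides. Zfp560, also with a KRAB box, stood at 3.92 and 7.43 FPKM. Zfp423, a cofactor of EBF factors with roles in cerebellar and fat cell development, stood at 4.98 and 9.04, 1.81-fold higher. With 27 C2H2 matches it has, with Zfp729a, the most fingers of the set. Zfp639 stood at 9.44 and 14.8 FPKM. Zfp524 stood at 2.16 and 3.88, but 51.6% of its exonic bases overlap Fiz1 and Gm44973, and fragments from such bases cannot be assigned without strand.

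None of the next 11 genes, taken for a known role or a high level, reached the size rule in the stress pair. Zfp189, known from mouse prefrontal cortex as a gene tied to resilience after stress, had 4.28 FPKM in control against 5.61 in susceptible. Zfp57, which keeps the methylation of imprinted loci, was at 3.63 and 5.11. Zfp932, a repressor of endogenous retroviruses in mouse embryonic stem cells, was at 17.8 and 14.2. Zfp804a, whose human counterpart lies in a schizophrenia risk locus, stood at 4.42 and 3.47 FPKM. Zfp326, a splicing factor, stood at 17.2 and 13.2, Zfp385b at 16.7 and 13.3, and the corepressor Zfp703 at 12.9 and 9.58. Zfp638, needed in human cells to silence unintegrated retroviral DNA, was at 29.3 and 22.9. Zfp365, whose human counterpart binds the schizophrenia-linked protein DISC1, had by far the highest level, 184 FPKM in control and 131 in susceptible, 1.41-fold lower. Zfp523 followed at 52.3 and 34.7, and Zfp91, a ubiquitin ligase, at 31.2 and 23.3. Of the list of 34 genes with known roles, 11 entered this comparison, 2 lay under the floor (Zfp488 at 0.466 and 0.895, Zfp36 at 0.565 and 1.86 FPKM) and 21 had no row.

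In the AAV pair, 6 of the 92 Zfp genes were higher and 9 lower in AAV-CDYL than in AAV-GFP, 6.52% and 9.78%. Among all 6164 protein-coding genes past the floor 27.9% were higher and 15.8% lower, together 43.7% against 16.3% of Zfp genes. The medians were -0.309 and -0.296, and 57 of 92 Zfp genes lay below AAV-GFP (62.0%, against 51.8%) and 35 above it (all genes 48.2%). Centred, the split was 33 higher and 1 lower (all genes 46.5% and 3.0%), and at a common upper quartile 13 and 2 (34.1% and 8.03%). Here too the direction with more calls depends on the scaling. In sign, the upper quartile factor of 1.1 could again change no side. Centred, slightly more Zfp genes lay below AAV-GFP than above it, a near-even split that was fixed because the 2 medians are close. No direction is read from it. With AAV-GFP itself at 2 FPKM or more, 4 of 84 were higher and 9 lower (all genes 18.1% and 18.6%). In the authors' deposited table, no Zfp gene (0 of 92) had a p-value under 0.05, against 9.56% of all these genes. The smallest was 0.0711, for Zfp36l1, and every q-value was 0.999.

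Zfp771, a C2H2 gene, had the largest difference of the Zfp genes, with 25.3 FPKM in AAV-GFP and 158 in AAV-CDYL, 6.24-fold higher (log2 difference 2.59). It lies on chromosome 7 from 127244274 to 127254803 and shares no locus and no exonic bases with another gene. About 842 and 5526 fragments lay behind the values. Of 6164 protein-coding genes, 197 were at least as high in this difference. It had no row in the stress table. Other listed protein-coding genes within 50 kb were also higher: Sept1 at 0.601 and 6.48 FPKM, Itgal, an integrin of white blood cells, at 0.113 and 4.67, Mylpf at 0.321 and 1.81, and Dctpp1 at 11.0 and 17.5. In AAV-GFP, Zfp771 was the most abundant of these 5 neighbours. Its level in that library was above the median of the Zfp genes, 5.85. The part of the neighbouring genes or of cell types in this difference was not tested.

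In the Zfp36 family, all 3 CCCH genes were called higher in the AAV pair, where 27.9% of all protein-coding genes past the floor were. Both scalings raise the AAV-CDYL values, so all 3 were bound to stay called under them. Zfp36, or tristetraprolin, stood at 0.542 FPKM in AAV-GFP and 3.18 in AAV-CDYL, 5.86-fold higher, on about 33.9 and 209 fragments. It passed the floor only through AAV-CDYL. Zfp36l1 stood at 4.45 and 10.8, 2.43-fold higher, and Zfp36l2 at 5.39 and 9.65, 1.79-fold higher. Of the exonic bases of Zfp36l1, 55.9% overlap Gm26669, listed at 0.357 FPKM in AAV-CDYL. Each of the 3 proteins has 2 CCCH matches and no C2H2 match. In the stress pair Zfp36 was under the floor at 0.565 and 1.86 FPKM, and Zfp36l1 and Zfp36l2 had no row. Microglia and macrophage markers and lymphocyte markers, which moved in the same direction in the AAV pair, are given above. Their part in these values was not tested.

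The other 2 genes called higher carry a KRAB box. Zfp110, also known as Nrif, a protein that binds the neurotrophin receptor p75, stood at 3.09 FPKM in AAV-GFP and 6.23 in AAV-CDYL. Zfp78 stood at 1.14 and 2.39, so it too passed the floor through AAV-CDYL alone.

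**Figure D2:**
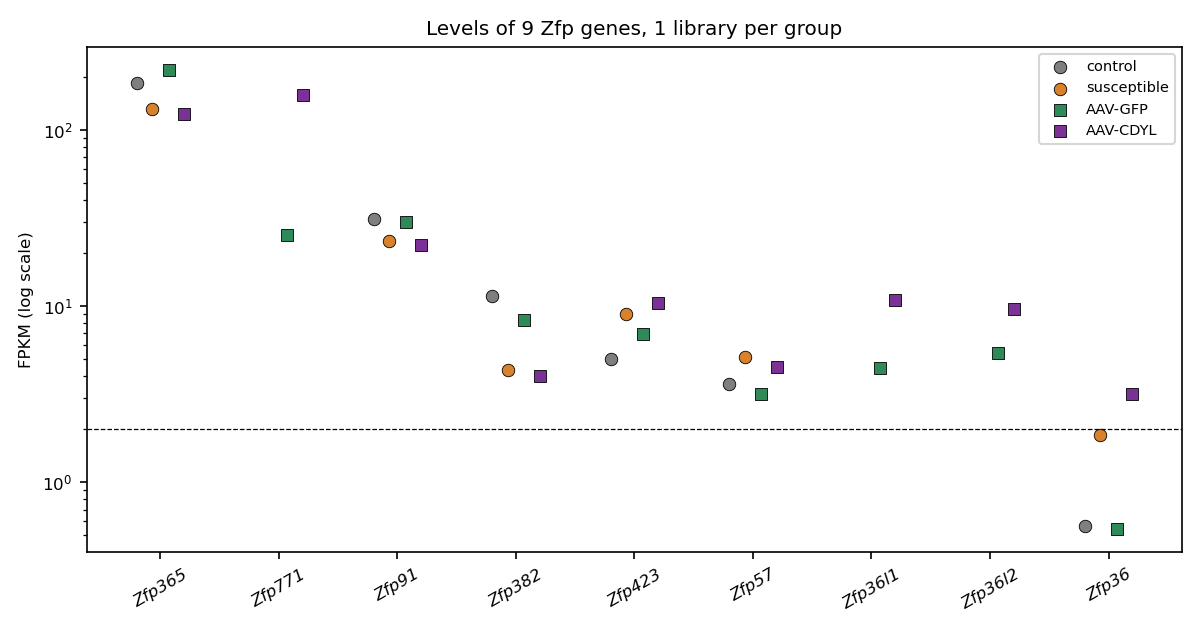
FPKM (log scale) of 9 Zfp genes in each library, 1 library per group, with circles for the stress pair, squares for the virus pair and a dashed line at the 2 FPKM floor. The tables were normalized separately, so circles and squares are not on 1 common scale. Zfp382 is lower in both treated libraries, Zfp36 is higher in both but passes the floor only in AAV-CDYL, and Zfp771, Zfp36l1 and Zfp36l2 have no row in the stress table.

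Zfp382 again had the largest lower difference, at 8.34 FPKM in AAV-GFP and 4.0 in AAV-CDYL, 2.09-fold lower (-0.9), on about 396 and 200 fragments. Zfp365 stood at 218 and 122 FPKM, 1.79-fold lower (-0.84). Zfp831 was at 6.39 and 3.71, and the KRAB genes Zfp811 and Zfp871, which are neighbours on chromosome 17, were at 4.12 and 2.29 and at 10.1 and 6.28. Zfp746, or PARIS, a substrate of parkin that represses the gene of PGC-1alpha, stood at 12.9 and 7.98. Zfp697 stood at 9.44 and 5.74, Zfp251 at 19.7 and 12.7. Zfp106, an RNA-binding protein needed by mouse motor neurons, was at 48.1 and 31.7, and 26.1% of its exonic bases overlap Gm26899. Under centring, 8 of these 9 no longer reached the size rule, Zfp382 alone being still called. Neuron markers were also lower, with a sum of 3970 FPKM in AAV-GFP and 2556 in AAV-CDYL, and their part in these values was not tested.

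Of the 34 genes with known roles, 15 entered the AAV pair, 4 lay under the floor and 15 had no row. Those under it were Zfp521 at 0.703 and 1.92 FPKM, Zfp488 at 0.437 and 1.32, Zfp217 at 0.777 and 1.5, and Zfp804b at 0.915 and 0.373. Zfp462, with 33 C2H2 matches the most of this comparison, stood at 8.97 FPKM in AAV-GFP and 5.88 in AAV-CDYL. Zfp148 stood at 17.7 and 13.2, Zfp804a at 4.68 and 3.2, Zfp704 at 7.74 and 5.71. Zfp91 was 1.35-fold lower, with 22.3 in AAV-CDYL. Zfp809, which silences retroviruses in mouse embryonic cells, was at 3.35 and 4.64, and Zfp57 at 3.17 and 4.53. Zfp423 was at 6.97 and 10.4, Zfp536, a brain repressor of neuronal differentiation, at 5.05 and 7.86, and Zfp219 at 6.5 and 8.59. None of these 10 reached the size rule.

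**Figure D3:**
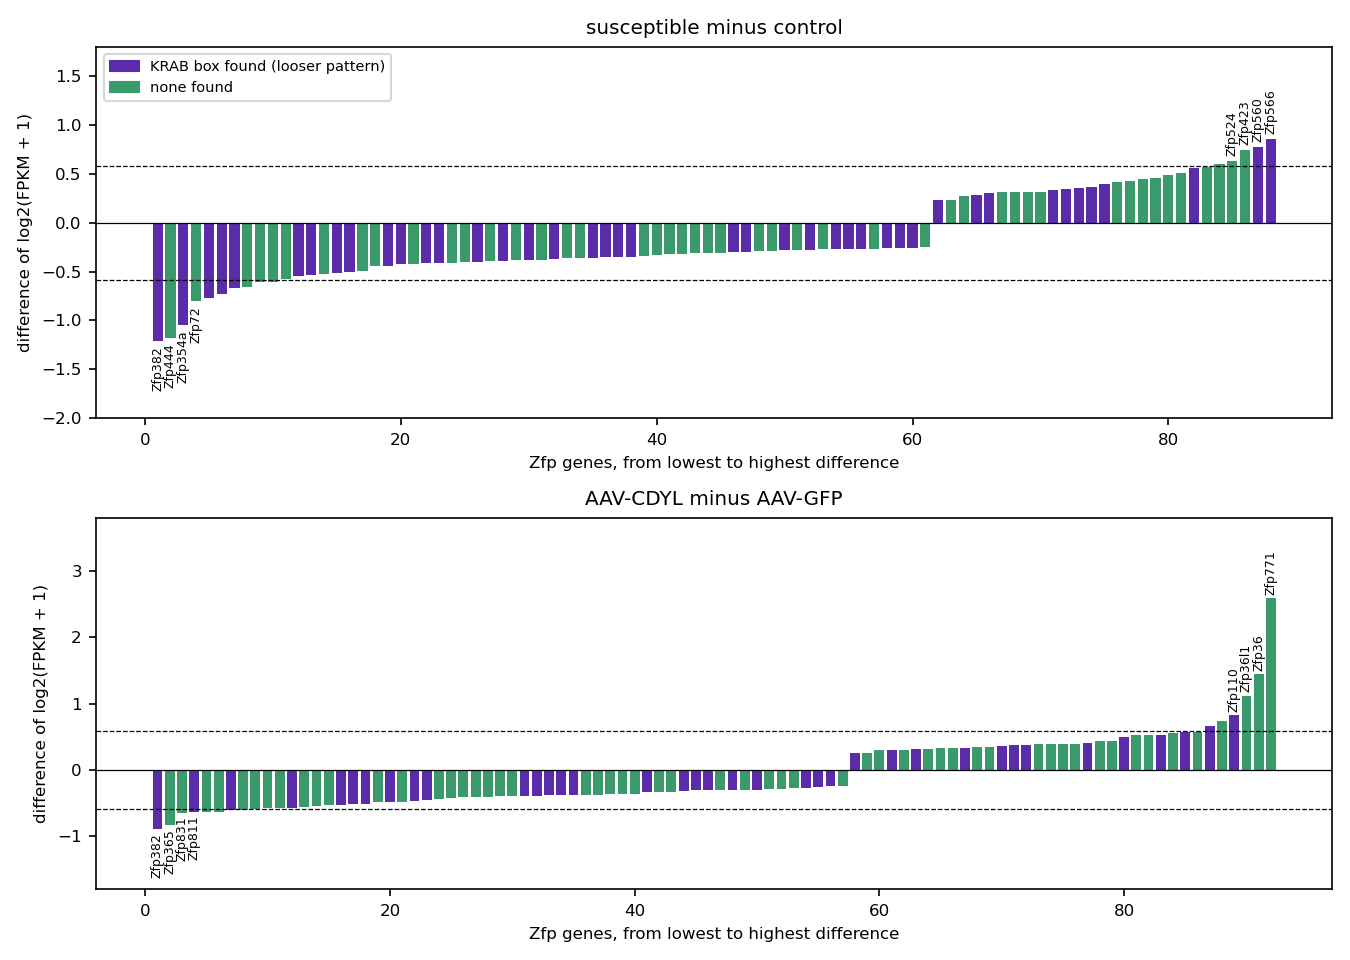
Difference of log2(FPKM + 1) for the 88 Zfp genes of the stress pair and the 92 of the AAV pair, 1 bar each in order of the difference, coloured by whether a KRAB box was found with the looser pattern. The stress values run from -1.21 (Zfp382) to 0.86 (Zfp566) and the AAV values from -0.9 (Zfp382) to 2.59 (Zfp771). Bars near 0 are absent because the tables list no smaller ratios, and the split of 5 higher and 10 lower, or 6 and 9, turns to 23 and 3, or 33 and 1, under centring.

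Just inside the floor, Zfp689 had 2.02 FPKM in control against 1.51 in susceptible and Zfp52 had 2.14 and 1.43, and just outside it Zfp760 stood at 1.99 and 1.38 and Zfp85 at 1.97 and 1.42. At the floor of the AAV pair, Zfp786 (2.02 and 1.43) and Zfp72 (2.05 and 1.59) were just inside, and Zfp521 and Zfp516 (1.26 and 1.89) just outside. No Zfp gene past the floor was listed at 0. In control, susceptible, AAV-GFP and AAV-CDYL, 3, 7, 8 and 5 of them were under 2 FPKM in that library.

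For the 35 genes in both comparisons, which share no library, 24 were lower in both treated libraries, 7 were higher in both and 4 lay on opposite sides. That is 88.6% on the same side, against 85.4% of the 2231 protein-coding genes past the floor in both tables. Under centring 17 were lower in both, 10 higher in both and 8 opposite (77.1% on the same side, against 84.2%). At a common upper quartile the counts were again 24, 7 and 4, which was fixed in advance because that scaling is too small to change any side. Of the 2231 genes, 922 were lower in both and 956 higher in both when centred, and 984 and 922 at a common upper quartile. Their split without scaling was not counted. Across the 35 genes Pearson r was 0.742 and Spearman rho 0.486, as a description across genes, which are not independent replicates. Small ratios are missing from both tables, so these values rest in part on agreement in sign. They are not given for the 2231 genes, so nothing particular to Zfp genes is read from them. The 7 genes higher in both were Zfp276, Zfp423, Zfp57, Zfp592, Zfp691, Zfp747 and Zfp87. Zfp423 went from 4.98 to 9.04 FPKM in the stress pair and from 6.97 to 10.4 in the AAV pair. Zfp57 went from 3.63 to 5.11 and from 3.17 to 4.53. Zfp691 went from 1.67 to 2.98 and from 1.62 to 2.91, a log2 difference of 0.57 in each pair. It passed the floor only through the treated library in each pair, so it could only be higher. Zfp747, at 1.99 FPKM in AAV-GFP, likewise entered the AAV pair only through AAV-CDYL. In the other direction, Zfp72 and Zfp882 entered both pairs only through the comparison libraries and could only be lower.

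Of the 24 genes lower in both, Zfp382 was the 1 gene called in the same direction in both pairs, and 9 of the 35 were called in at least 1 pair. Of all protein-coding genes past the floor, 26.5% were called in the stress pair and 43.7% in the AAV pair. Their share called in both or in either was not counted, so nothing is read from the 1 and the 9. Zfp91 was 1.34-fold lower in the stress pair and 1.35-fold lower in the AAV pair. Zfp451, a SUMO ligase, went from 12.6 to 8.48 and from 12.8 to 8.31. Zfp644, which joins the G9a methyltransferase complex in human cells, went from 21.5 to 16.0 and from 21.7 to 16.2. The 4 genes on opposite sides were Zfp101 (4.17 to 5.67 and 4.14 to 3.19), Zfp318 (10.8 to 14.8 and 11.9 to 9.24), Zfp407 (2.58 to 3.48 and 4.91 to 2.97) and Zfp433 (3.34 to 4.27 and 6.37 to 4.65). Zfp318 is needed in mouse B cells for IgD. Levels in control and AAV-GFP ranked alike over the 35 genes (Spearman rho 0.957), although these libraries come from separately normalized tables. Of the 15 KRAB genes among them by the looser pattern, 10 were lower in both and 3 higher in both, beside 24 and 7 of all 35.

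**Figure D4:**
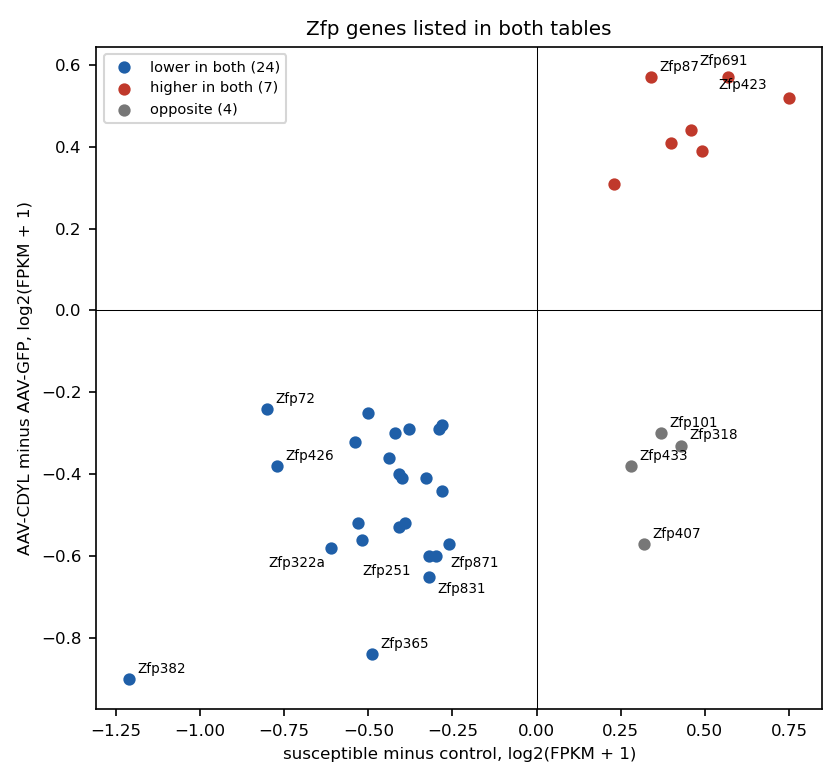
Difference of log2(FPKM + 1) in the stress pair (x axis) and the AAV pair (y axis) for the 35 Zfp genes past the floor in both tables, coloured by side. Most points (24) lie at the lower left, 7 in the upper right and 4 on opposite sides. Under centring these become 17, 10 and 8, where 922, 956 and 353 of 2231 protein-coding genes past the floor in both tables did so.

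Of the 53 genes that entered in the stress pair alone, 52 had no row in the AAV table and Zfp52 lay under the floor (1.59 and 1.22 FPKM). Of the 57 in the AAV pair alone, 55 had no row in the stress table, and Zfp395 (1.32 and 1.87) and Zfp36 lay under the floor. Because an absent row means a smaller ratio or no value, these genes are not shown to differ between pairs.

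A C2H2 match was found in 84 of the 88 and 86 of the 92 proteins, with a median of 10 matches in each comparison. Zfp365, Zfp703, Zfp781 and Zfp935 had no match of either type in the stress pair, and Zfp330, Zfp365 and Zfp935 in the AAV pair. A strict KRAB pattern was found in 18 and 21 proteins, and the looser pattern, with 1 residue free to differ, in 42 and 37. Zfp57, a known KRAB protein, was found only by the looser one. The looser pattern may still miss KRAB boxes, as it matched Zfp729a but not Zfp729b. Genes without a match can thus include KRAB genes, and the classes below are by match alone. By the looser pattern KRAB genes had a median of 11 and 12 fingers and genes without a match 8 and 8.

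In the stress pair, 2 of the 42 KRAB genes by the looser pattern were higher and 5 lower (median difference -0.32), and 3 of the 46 others were higher and 5 lower (-0.31). In the AAV pair, 2 of 37 were higher and 3 lower, and 4 of the 55 others were higher and 6 lower, with both medians at -0.31. By the strict pattern, 2 higher and 2 lower of 18 stood beside 3 and 8 of 70 in the stress pair, and 2 and 3 of 21 beside 4 and 6 of 71 in the AAV pair. The count of KRAB genes called lower in the stress pair thus rests on the pattern. Of all genes past the floor, 16.0% were higher and 10.5% lower in the stress pair, and 27.9% and 15.8% in the AAV pair. Under centring the looser KRAB class had 9 higher and 2 lower of 42 and the others 14 and 1 of 46 in the stress pair, and 12 and 1 of 37 and 21 and 0 of 55 in the AAV pair. The shares of all genes were then 44.1% and 2.63%, and 46.5% and 3.0%.

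Of 30 genes for cofactors of KRAB proteins, such as corepressors and chromatin enzymes, 6 passed the floor with a row in each pair. Called were 0 in either, against 26.5% of all genes past the floor in the stress pair and 43.7% in the AAV pair. Under centring 2 were called higher in each, against 44.1% and 46.5% of all genes. Nothing about cofactors is read from these counts. Trim28, the corepressor that KRAB boxes bind, was listed at 32.6 FPKM for control and 46.9 for susceptible, and had no row in the AAV table. Rbbp7 stood at 60.7 and 83.0, and the DNA methyltransferase Dnmt3a at 11.4 and 8.92. Of the AAV pair, the deacetylase Hdac1 stood at 11.8 and 16.8, the heterochromatin protein gene Cbx5 at 58.1 and 43.5, the remodeller Chd3 at 221 and 160 and Mta3 at 47.1 and 37.0.

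Of 14 Zbtb genes, which pair C2H2 fingers with a BTB domain, 0 were higher and 1 lower in the stress pair (16.0% and 10.5% of all genes past the floor), and 12 lay below control (53.0% of all genes). In the AAV pair 2 of 19 were higher and 6 lower (27.9% and 15.8% of all genes). One of these 19, Zbtb8os, is named for its place opposite another gene and is no zinc finger gene. The 6 lower included Zbtb4 (43.5 FPKM in AAV-GFP and 22.3 in AAV-CDYL), Zbtb16 (14.9 and 7.9) and Zbtb18 (123 and 78.4). Of Klf genes, 2 were higher and 3 lower of 7 in the stress pair and 0 and 2 of 6 in the AAV pair. Klf10 was lower in both, from 15.5 to 8.97 and from 15.5 to 9.4. Zkscan and Zscan genes had 1 higher of 5 and 0 of 4, and 0 lower in either pair. Centred, the Zbtb split was 1 higher and 0 lower in the stress pair and 4 and 1 in the AAV pair, and the Klf split 3 and 1, and 2 and 0, where 44.1% and 2.63% of all genes in the stress pair and 46.5% and 3.0% in the AAV pair were higher and lower. No difference between these families and the Zfp genes was tested.

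**Figure D5:**
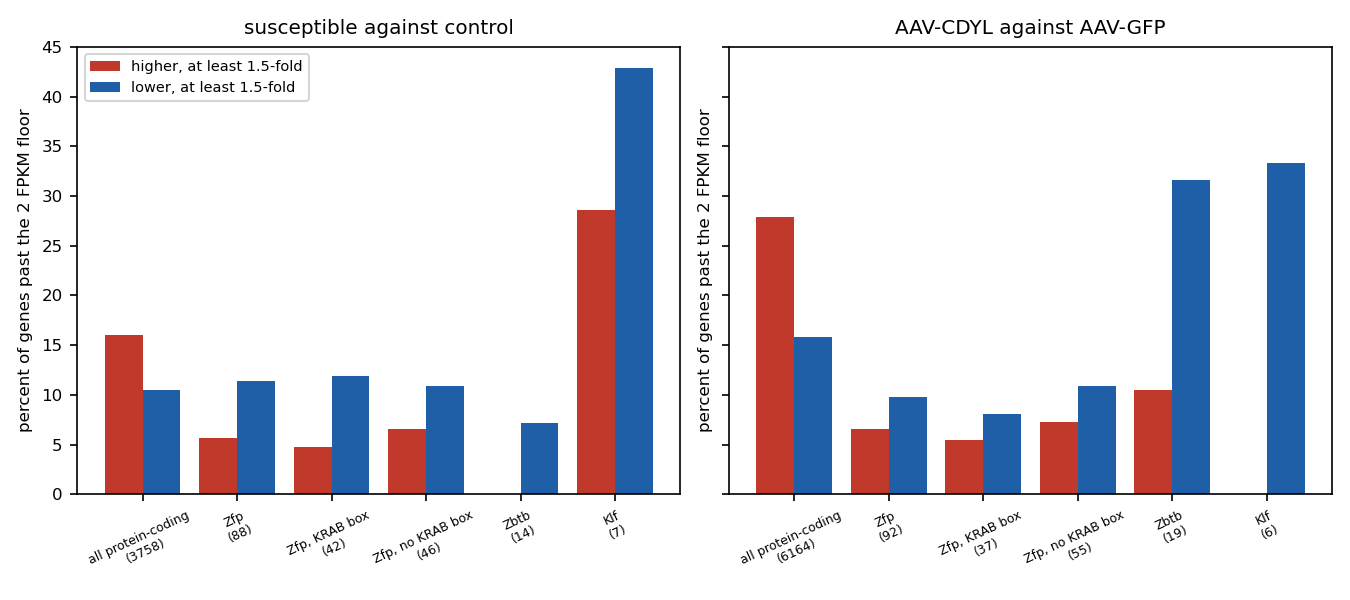
Percent of genes past the 2 FPKM floor called at least 1.5-fold higher (red) or lower (blue) on the log2(FPKM + 1) scale in each pair. Shown are all protein-coding genes, Zfp genes, Zfp genes with and without a KRAB match by the looser pattern, Zbtb genes and Klf genes, with the number of genes in brackets. Zfp genes without a match can include KRAB genes. Zfp genes show 5.68% higher and 11.4% lower in the stress pair and 6.52% and 9.78% in the AAV pair, against 16.0%, 10.5%, 27.9% and 15.8% of all genes. Centring on the median turns the Zfp split to 23 higher and 3 lower, and to 33 and 1 (all genes 44.1% and 2.63%, and 46.5% and 3.0%).

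Zfp genes lie in clusters of tandem copies. Of the 145 genes, 34 were on chromosome 7, 19 on 17, 15 on 13 and 13 on 8. On chromosome 13, 5 of 11 Zfp genes were lower and 0 higher in the stress pair, where 10.5% of all genes were lower. Under centring 0 were lower and 1 higher (2.63% and 44.1% of all genes). In the AAV pair 0 of 8 on that chromosome were called (43.7% of all genes). On chromosome 7, 13 of 21 lay above AAV-GFP in the AAV pair (48.2% of all genes), Zfp771, Zfp36, Zfp110 and Zfp78 among them, whereas 5 of 19 lay above control in the stress pair (47.0% of all genes) and 14 below. In the AAV pair, Zfp36, Zfp78, Zfp784 and Zfp747 passed the floor only through AAV-CDYL and could only lie above. Zfp111 passed only through AAV-GFP and could only lie below. Nothing about the chromosome is read from these shares. Of neighbouring expressed Zfp genes at most 100000 bases apart, 9 of 15 pairs lay on the same side in the stress pair (60.0%, against 56.9% of neighbouring protein-coding genes past the floor) and 10 of 12 in the AAV pair (83.3%, against 58.8%). Near-identical paralogs can share reads, so values of clustered Zfp genes are uncertain where the counting could divide them. In each comparison 16 Zfp genes had another listed gene within their Cuffdiff locus, and 4 and 6 had over 20% of their exonic bases in other genes, Zfp935 with 100%.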

How the data were processed

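RNA from prelimbic cortex was sequenced in 4 libraries, 1 per group. Per the labels' protocols, 1 µg of RNA went into each NEBNext Ultra library, a kit in which strand is lost. FPKM values were deposited by the authors in 1 table per pair, made with Cuffdiff on mm10 per the submitters' processing notes. The sources used here do not give the aligner, the gene annotation or tool versions. The authors' deposited p-values and q-values come from a single column against a single column and are quoted as theirs. The deposited log2 fold column was not used. Each per-sample column was matched to a title (0 unmapped).

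Differences were taken within a table on log2(FPKM + 1) at a floor of 2 FPKM in the larger value, with 1.5-fold as the size rule, and no test was run for lack of replicates. Depth was estimated from low values (under 4.5 steps) of genes with 1 transcript of 3 to 20 kb: between 87.0% and 95.2% of 55 to 69 values per library lay within 0.15 of a whole step. It includes the authors' scaling. The planned protein classes from RefSeq were instead computed from GENCODE M21 coding sequences, and promoters came from RefSeq. Positions are those of the mm10 tables.

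The named genes were, in each pair, the 8 largest differences per direction, the 4 highest mean levels, 2 genes on each side of the floor and 34 genes with known roles. Genes outside it (such as Zfp451, Zfp644 and those on opposite sides in the pairs) were chosen after their values were seen. The members and lists were chosen with earlier results of these data known. Alternatives were other pseudocounts, floors, folds and scalings, the authors' deposited p-value, shared loci left out, a looser KRAB pattern and, chosen after seeing the data, genes with over 20% exonic overlap left out. Software was Python 3.11.15, matplotlib 3.10.9, numpy 2.4.6, scipy 1.17.1 and pandas 2.3.3.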

Additional observations from a re-analysis of the deposited data

How the results depend on the processing

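In the stress pair, 5 Zfp genes were higher and 10 lower. Centred on the median of all genes these were 23 and 3, at a common upper quartile 10 and 6, at 2-fold 0 and 3, and by the authors' deposited p-value under 0.05 they were 0 and 1. A pseudocount of 0.1 gave 9 higher, and leaving out shared loci gave 3 higher. The median moved to -0.01 when centred and to -0.17 at a common upper quartile. With the looser KRAB pattern, 5 KRAB genes were lower in place of 2, and 5 others in place of 8. In the AAV pair, 6 were higher and 9 lower. Centred these were 33 and 1, at a common upper quartile 13 and 2, at 2-fold 3 and 0, by the authors' p-value 0 and 0, with a pseudocount of 0.1 13 and 20, and with 0.5 10 and 14. A floor of 1 FPKM, or none, gave 11 higher. The median was -0.01 when centred, -0.2 at a common upper quartile and, reversed, 0.13 without a floor. Under centring 3 named genes that were not called crossed 0: Zfp689 (-0.27 to 0.02) and Zfp804a (-0.28 to 0.02) in the stress pair and Zfp72 (-0.24 to 0.06) in the AAV pair. No other named gene changed sign when centred. The pseudocounts, floors and upper quartile scaling could not change the sign of a listed gene, so nothing is read from signs kept under them. Those that no longer reached 1.5-fold did so under centring or upper quartile scaling (Zfp346, Zfp426, Zfp65, Zfp72 and Zfp931 in the stress pair, 8 genes in the AAV pair). Counts under centring carry the limit given above, and the cause of these changes was not tested. No paired analysis was possible because each group is 1 library and the labels carry no replicate numbers. Leaving out a library leaves no comparison. At 2 FPKM, counting error alone is 8.41% to 10.7% (SD) for a transcript of 3 kb.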
